A study of Mus musculus with 18 samples.

Results

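The beta-defensin gene family was followed across RNA sequencing libraries of whole mouse testis. Its members were the rows of the deposited table whose gene symbol starts with Defb and a digit, and 34 of the 20985 genes (0.162%) met this rule. Beta-defensins are small, positively charged secreted peptides, folded around conserved disulfide bonds, that damage the membranes of bacteria and fungi and can attract immune cells through chemokine receptors. In rodents many members are made by the epithelium of the epididymis, the duct in which sperm mature, each in its own stretch of the duct, and some of the peptides coat passing sperm. A few are made in the testis itself, where Sertoli cells, the somatic cells that nurse the germ cells inside the seminiferous tubules, are a known source.

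The mice were of the outbred ICR strain and 10 weeks old, and gave 18 libraries, 3 in each of 6 groups. STZ + AOS mice received streptozotocin (STZ), which kills insulin-producing cells and is used to model diabetes, and alginate oligosaccharide (AOS), a fragmented seaweed polysaccharide, at 10 mg/kg. STZ + AOS-FMT and STZ + control-FMT mice received STZ and a faecal microbiota transplant (FMT), read from the labels as coming from donors given AOS at 10 mg/kg or from control donors. STZ mice received STZ alone, AOS mice received AOS alone at 10 mg/kg, and for control mice the labels name no agent. The labels give neither the dose nor the timing of STZ, nor whether each library was made from its own animal. The p-values therefore cover the spread between libraries, which may be technical.

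Values were taken as FPKM, that is, fragments scaled by transcript length and library depth. The header names no unit, the number of reads is unknown, and no counting interval could be set. Sums over all genes lay between 561038 and 622169 per library. All 8 elongating spermatid markers and 16 to 18 of 18 Sertoli cell markers reached 1 FPKM in every library. Of 24 genes known from the epididymal epithelium, 21 were at low levels in most libraries. Their sum was 298 FPKM in STZ + control-FMT replicate 2, 702 FPKM in STZ + control-FMT replicate 3 and 195 FPKM in control replicate 3, and between 0.71 and 18.8 FPKM in the other 15 libraries. The remaining 3 (Wfdc10, Rnase10 and Cuzd1) were at or above 1 FPKM in all 18 libraries and were left out of the sum after their values were seen. Results that rest on the 3 high libraries are given with and without them.

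The family split by library. Of the 34 members, 6 reached 1 FPKM in all 18 libraries (Defb19, Defb36, Defb33, Defb45, Defb14 and Defb21). A further 8 did so in 3 or more libraries (Defb30, Defb41, Defb43, Defb11, Defb47, Defb28, Defb22 and Defb38), and these 14 entered the tests. Another 12 reached 1 FPKM in 1 or 2 libraries, 5 reached 0.1 FPKM but never 1 FPKM, and Defb8, Defb15 and Defb39 were listed at 0 throughout. Because a member had to reach 1 FPKM in 3 libraries to be tested, some of the 14 passed only through the libraries in which they were high. Defb19, Defb36 and Defb33 together made up 92.7 to 97.5% of the summed family level in 15 libraries. In STZ + control-FMT replicates 2 and 3 their share was 80.2% and 42.0%, and in control replicate 3 it was 80.4%.

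**Figure D1:**
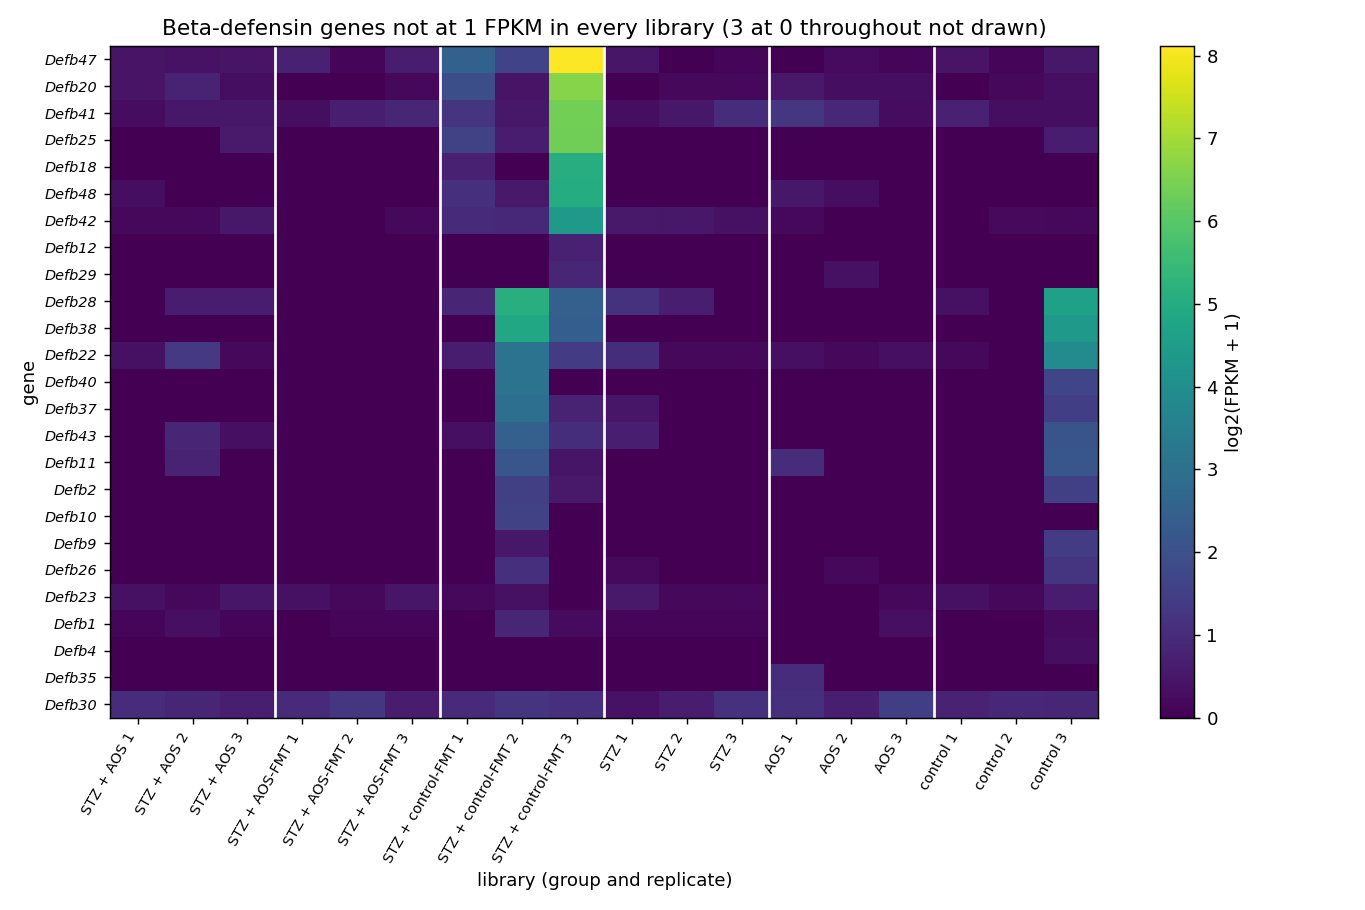
Heat map of log2(FPKM + 1) for members outside the 6 that reached 1 FPKM in all 18 libraries, with members in rows and libraries in columns, grouped by treatment. STZ + control-FMT replicates 2 and 3 and control replicate 3 stand out. STZ + control-FMT replicate 2 and control replicate 3 share a block of members, while STZ + control-FMT replicate 3 has another. The 3 members listed at 0 throughout are not drawn.

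The 6 members found in every library lie in 2 of the family's 4 gene clusters. In GENCODE M21 on GRCm38 (mm10), 11 members span 164.0 kb of chromosome 2, 16 span 2965.9 kb of chromosome 8, 5 span 80.6 kb of chromosome 14 and 2 span 28.7 kb of chromosome 1. Defb19 (chr2:152576086-152580312, minus strand, 2 exons), Defb45 (chr2:152593191-152599399, minus strand) and Defb36 (chr2:152604327-152612729, plus strand) are neighbours, and the GENCODE starts of Defb36 and Defb45 are 4928 bp apart on opposite strands. Defb21 lies in the same cluster. Defb33 (chr8:20892669-20897723) and Defb14 (chr8:19194357-19195212), both on the plus strand, lie in the chromosome 8 cluster. No 25-base word of the transcripts of Defb19, Defb36, Defb33, Defb14 or Defb21 occurs in the transcript of another gene, whereas 1.24% of the words of Defb45 do, so part of its reads could be shared.

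The promoters of 3 of these genes are shown because Defb36 and Defb45 are neighbouring genes that differ widely in level, while Defb33 is abundant and lies in the chromosome 8 cluster. Each is the 300-base window around the start that RefSeq gives on GRCm38.p6. For Defb45 that start differs from the GENCODE start: the window lies inside the GENCODE gene and does not hold the start used for the spacing above. The Defb36 window is chr2:152604077-152604376 on the plus strand, the Defb45 window is chr2:152596436-152596735 on the minus strand, and the Defb33 window is chr8:20892417-20892716 on the plus strand. Capitals mark AGAACA, the core of androgen response elements, or ACAATGG, a core bound by SOX factors such as the Sertoli cell regulator SOX9, on either strand.
Defb36: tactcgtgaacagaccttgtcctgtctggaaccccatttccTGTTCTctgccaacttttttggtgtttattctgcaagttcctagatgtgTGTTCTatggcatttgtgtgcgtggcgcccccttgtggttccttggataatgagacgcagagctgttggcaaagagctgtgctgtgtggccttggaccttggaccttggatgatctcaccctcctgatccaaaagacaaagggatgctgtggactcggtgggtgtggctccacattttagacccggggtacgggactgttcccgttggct
Defb45: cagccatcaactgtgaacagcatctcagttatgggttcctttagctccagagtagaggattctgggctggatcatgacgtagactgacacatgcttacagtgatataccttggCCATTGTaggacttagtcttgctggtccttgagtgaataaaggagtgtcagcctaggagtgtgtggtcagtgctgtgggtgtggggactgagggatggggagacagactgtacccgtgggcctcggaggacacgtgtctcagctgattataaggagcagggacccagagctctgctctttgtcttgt
Defb33: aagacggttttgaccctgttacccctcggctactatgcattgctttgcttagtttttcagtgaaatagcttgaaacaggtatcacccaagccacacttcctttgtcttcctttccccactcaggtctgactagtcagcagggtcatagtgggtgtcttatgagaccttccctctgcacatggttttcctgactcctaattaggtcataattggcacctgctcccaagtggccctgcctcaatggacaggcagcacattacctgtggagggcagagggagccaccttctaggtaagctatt
AGAACA, on the opposite strand, occurred at 2 places in the Defb36 window, and ACAATGG, also on the opposite strand, at 1 place in the Defb45 window. Neither was found in the Defb33 window. AGAACA was in 15 of the 24 RefSeq promoters of 23 members and in 19.0% of all 32851 promoters in that table, and ACAATGG was in 2 of the 24 (Defb30 and Defb45) and in 3.66% of all. Among the other motifs searched on both strands, TATAAA was in 4 of the 24 and in 13.6% of all, and TGACGTCA, the cyclic AMP response element, was in 0 of the 24 and in 1.79% of all. The letters of AGAACA and ACAATGG can overlap by up to 3 bases. These are matches of letters only.

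Defb19 and Defb36 were higher in STZ testis than in control testis. Defb19, cloned in mouse as a Sertoli cell defensin gene, was the most abundant member. It stood at 397, 592 and 582 FPKM in STZ libraries, against 258, 244 and 223 FPKM in control libraries. Defb36, also known from Sertoli cells, was at 173, 209 and 224 FPKM in STZ libraries, against 69.0, 55.4 and 44.2 FPKM in control libraries. In both genes every STZ library lay above every control library, and STZ replicate 1 was the lowest of the STZ libraries.

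On the log2(FPKM + 1) scale, Defb19 rose by 1.09 (SE 0.14, limma adjusted p = 1e-05) in STZ over control. Defb36 rose by 1.84 (SE 0.14, limma adjusted p = 1.12e-07). Defb45 was at 4.02, 11.4 and 7.40 FPKM in STZ libraries, against 3.06, 4.39 and 4.83 FPKM in control libraries. It rose by 0.68 (SE 0.24, limma adjusted p = 0.0277), but the libraries of the groups overlapped. Without STZ replicate 2 the difference in Defb45 was 0.37 with adjusted p = 0.173, and leaving out STZ replicate 3 or control replicate 1 also ended its call (adjusted p = 0.0759 and 0.119). These 3 were the only members called of the 14 tested, while 55.2% of the 14164 genes tested were called in STZ against control and 43.2% were called higher. The libraries did not overlap in 2 members, Defb19 and Defb36, and in 53.6% of all genes tested. The median gene was higher by 0.17 in STZ, and relative to it Defb19 differed by 0.92, Defb36 by 1.67 and Defb45 by 0.51.

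**Figure D2:**
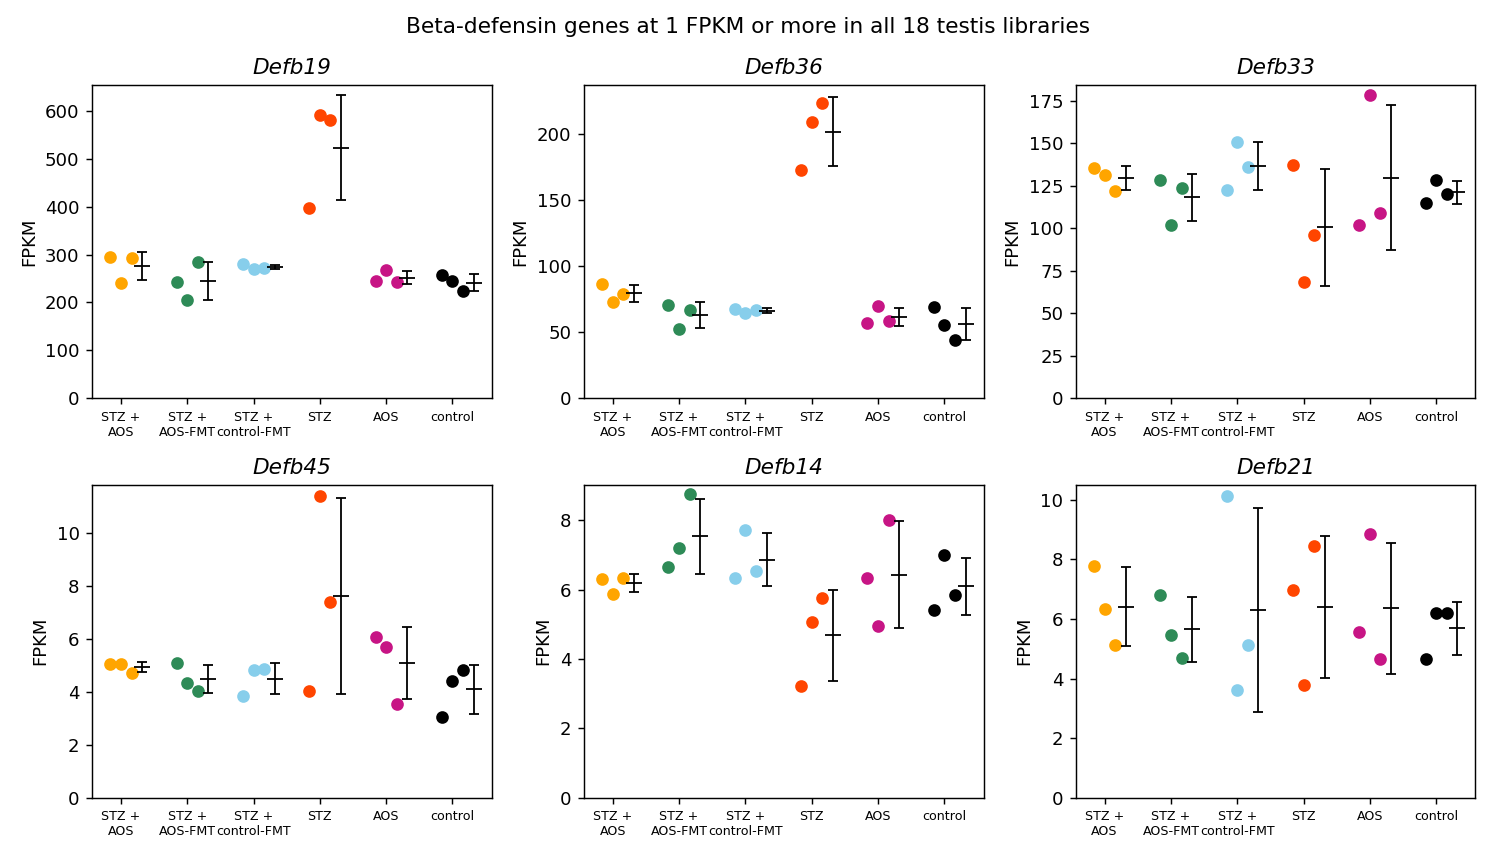
FPKM of the 6 members at or above 1 FPKM in all libraries, in 6 groups from STZ + AOS on the left to control on the right. Points are libraries, and dashes with whiskers are the mean ± SD of 3 libraries. The 3 STZ libraries lie above all other libraries for Defb19 (397 to 592 FPKM) and Defb36 (173 to 224 FPKM).

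Markers of Sertoli cells moved with these genes. Of 18 Sertoli cell markers, 17 rose in STZ over control and 0 fell, with a median difference of 1.18 on the log2(FPKM + 1) scale. Among them Cldn11, a tight junction protein of the blood-testis barrier, rose by 1.69 (limma adjusted p = 1.97e-09) and Wt1, a transcription factor of Sertoli cells, rose by 1.20 (limma adjusted p = 3.44e-09). The summed level of the 18 markers lay between 2189 and 2852 FPKM in STZ libraries and between 929 and 1076 FPKM in control libraries. Defb19 equalled 18.1, 20.8 and 20.4% of that sum in STZ libraries, against 24.0, 26.2 and 22.6% in control libraries. Defb36 equalled 7.89, 7.34 and 7.86% in STZ libraries, against 6.41, 5.96 and 4.48% in control libraries. Relative to the marker sum, which is led by Clu, Defb19 was thus lower and Defb36 higher in each STZ library than in each control library.

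Other cell types moved as well. All 8 elongating spermatid markers fell, with a median of -0.60, and their sum was 25090 to 46370 FPKM in STZ libraries and 50960 to 57200 FPKM in control libraries. Of 10 macrophage markers 9 rose, and their sum was 170 to 342 FPKM in STZ libraries and 68.5 to 69.4 FPKM in control libraries. Of 7 fat cell markers tested 0 were called, and the sum of the 8 in the list was 23.5, 33.4 and 248 FPKM in STZ libraries, against 43.6, 19.9 and 34.9 FPKM in control libraries. In whole tissue, a change in the number of cells of a type and a change in RNA per cell cannot be told apart. The part of these shifts in the Defb19 and Defb36 result was not tested.

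The ratio of Defb36 to Defb19 does not depend on library scaling. It was 0.436, 0.353 and 0.385 in STZ libraries, against 0.268, 0.227 and 0.198 in control libraries. The difference was 0.77 on the log2 scale, and its p of 0.1 in an exact two-sided permutation test is the smallest that 3 against 3 libraries allow. The ratio was lower than in STZ in each of the treated groups, at 0.293, 0.302 and 0.270 in STZ + AOS libraries, 0.289, 0.253 and 0.235 in STZ + AOS-FMT libraries and 0.242, 0.237 and 0.247 in STZ + control-FMT libraries. The log2 differences from STZ were -0.44, -0.59 and -0.69 in these 3 groups, each with the smallest exact p of 0.1.

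In the treated STZ groups Defb19 and Defb36 were lower than in STZ alone. All 3 comparisons share the same STZ libraries. Defb19 was at 294, 242 and 292 FPKM in STZ + AOS libraries, 243, 205 and 284 FPKM in STZ + AOS-FMT libraries and 279.6, 271 and 272 FPKM in STZ + control-FMT libraries. Defb36 was at 86.2, 73.0 and 78.8 FPKM in STZ + AOS libraries, 70.2, 52.0 and 67.0 FPKM in STZ + AOS-FMT libraries and 67.7, 64.1 and 67.0 FPKM in STZ + control-FMT libraries. None of these 9 libraries reached the lowest STZ library in either gene.

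Against STZ, Defb19 fell by 0.90 in STZ + AOS (SE 0.14, limma adjusted p = 5.93e-05), by 1.09 in STZ + AOS-FMT (limma adjusted p = 9.65e-06) and by 0.91 in STZ + control-FMT (limma adjusted p = 6.91e-05). Defb36 fell by 1.33, 1.67 and 1.58 in the same 3 groups, with limma adjusted p of 3.08e-06, 2.68e-07 and 6.32e-07. The 18 Sertoli cell markers fell too, with 17, 18 and 17 called and medians of -1.09, -1.16 and -1.11, and their part in the result was not tested. In STZ + AOS against STZ, Defb19 and Defb36 were the 2 members called, both lower, where 55.0% of all genes were called and 43.1% were called lower. The libraries did not overlap in 3 members, Defb19, Defb36 and Defb14, and in 52.2% of all genes. In STZ + AOS-FMT against STZ 3 members were called, 2 lower (Defb19 and Defb36) and 1 higher (Defb14), where 56.6% of all genes were called, 44.5% lower and 12.0% higher. The libraries did not overlap in 4 members, these 3 and Defb22, and in 53.4% of all genes. In STZ + control-FMT against STZ 4 members were called, 2 lower (Defb19 and Defb36) and 2 higher (Defb14 and Defb47, which entered the tests only through its STZ + control-FMT libraries), where 51.2% of all genes were called, 39.9% lower and 11.4% higher. The libraries did not overlap in these 4 members and in 49.2% of all genes.

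**Figure D3:**
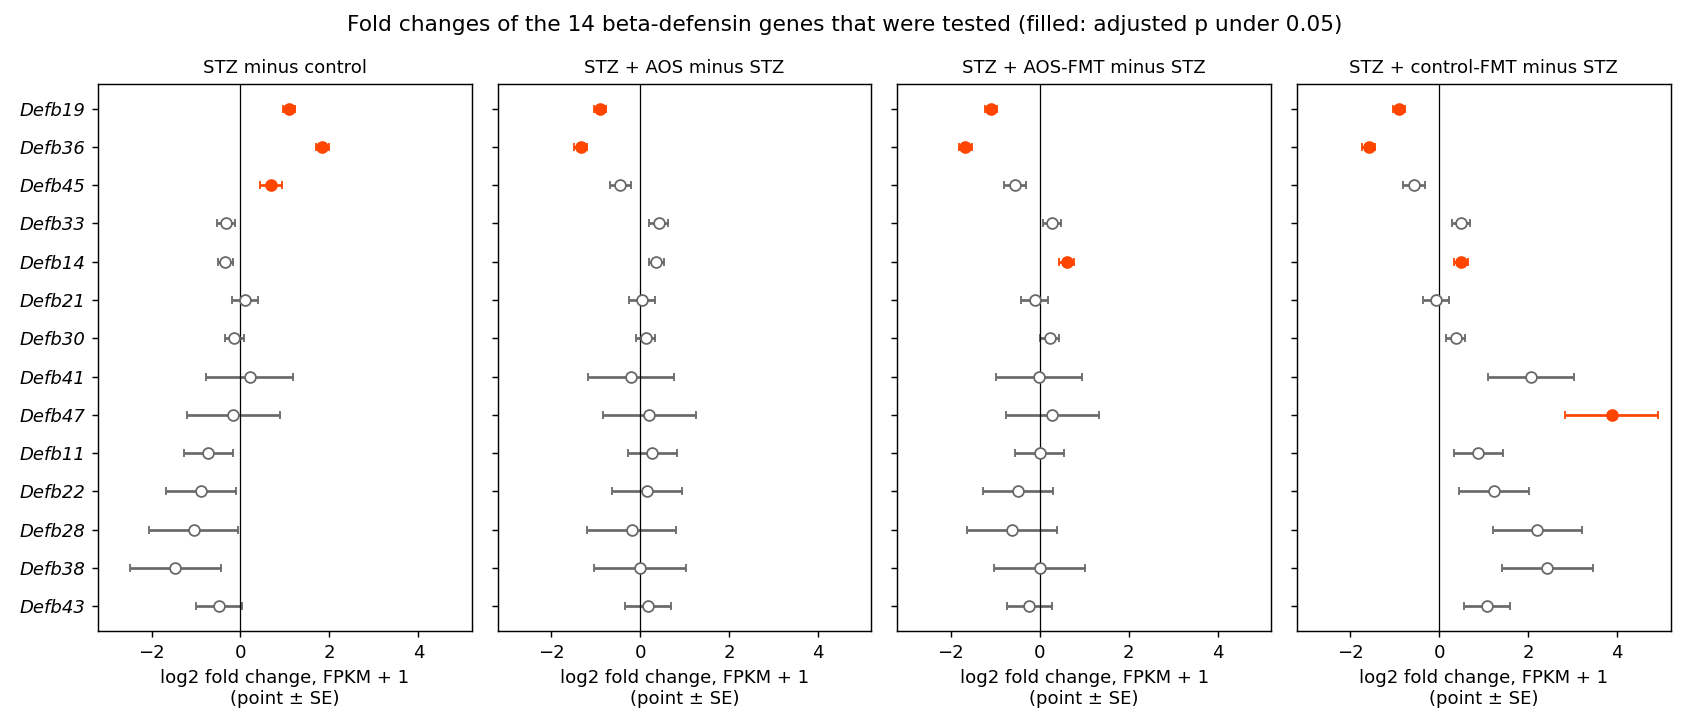
Difference in log2(FPKM + 1) with its standard error for the 14 members tested, in STZ minus control and in each treated STZ group minus STZ. Filled points have a limma adjusted p under 0.05. Defb19 and Defb36 are higher in STZ over control (1.09 and 1.84) and lower in all 3 treated groups than in STZ, and Defb47, tested only through its high STZ + control-FMT libraries, is at 3.88 in STZ + control-FMT minus STZ.

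AOS alone left the family without a call. Defb19 was at 245, 268 and 243 FPKM in AOS libraries, against 258, 244 and 223 FPKM in control libraries, and Defb36 was at 56.8, 69.4 and 58.5 FPKM in AOS libraries, against 69.0, 55.4 and 44.2 FPKM in control libraries. By limma 0 of 14 members were called in AOS against control and 0 passed an unadjusted p of 0.05, where 0.00% of all genes were called. No member had libraries that did not overlap, against 22.3% of all genes. The effect of AOS in STZ mice differed from its effect without STZ by -0.96 for Defb19 (SE 0.19, limma adjusted p = 0.00175) and by -1.48 for Defb36 (SE 0.20, limma adjusted p = 0.000128). These 2 members were called in this test of the interaction, both negative, as were 35.2% of all genes, 29.1% negative and 6.12% positive.

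Set against control, the treated STZ groups gave no call in the family. By limma 0 of 14 members were called in STZ + AOS against control, where 0.0424% of all genes were called, 0.0141% higher and 0.0282% lower. Defb36 was the 1 member with an unadjusted p under 0.05: it was at 86.2, 73.0 and 78.8 FPKM in STZ + AOS libraries, all above the control libraries at 69.0, 55.4 and 44.2 FPKM. The difference was 0.51 on the log2(FPKM + 1) scale (SE 0.14, limma adjusted p = 0.338), and 17.8% of all genes had libraries that did not overlap in this comparison. In STZ + AOS-FMT against control 0 members were called and 0 passed an unadjusted p of 0.05, where 0.00% of all genes were called. In STZ + control-FMT against control 0 members were called and 2 (Defb41 and Defb47) had an unadjusted p under 0.05, as had 883 of the 14164 genes, where 0.00% of all genes were called. Both members passed the filter only with their STZ + control-FMT libraries. The libraries did not overlap in 3 members, Defb19, Defb30 and Defb47, and in 16.3% of all genes.

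Defb33, the other abundant member, gave no call. It was at 137, 68.4 and 95.7 FPKM in STZ libraries, against 115, 128 and 120.2 FPKM in control libraries. The groups overlapped because of STZ replicate 1, and the difference of -0.32 did not pass the test (SE 0.21, limma adjusted p = 0.205). Without STZ replicate 1 it was -0.57 with adjusted p = 0.0168, and without STZ replicate 2 it was -0.079 with adjusted p = 0.765. Defb33 was at 135, 131 and 122 FPKM in STZ + AOS libraries, 128, 102 and 124 FPKM in STZ + AOS-FMT libraries and 122, 151 and 136 FPKM in STZ + control-FMT libraries, and differed from STZ by 0.42, 0.28 and 0.49 (limma adjusted p = 0.102, 0.269 and 0.0622). These 9 libraries overlapped the STZ libraries, and AOS libraries, at 102, 179 and 109 FPKM, overlapped the control libraries. Without STZ replicate 1 Defb33 was called higher in all 3 treated groups than in STZ, by 0.67, 0.53 and 0.74 (limma adjusted p = 0.00675, 0.0244 and 0.00362). Across the alternatives these 3 differences went as low as 0.18, 0.036 and 0.25, with limma adjusted p of up to 0.482, 0.892 and 0.442.

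Defb45 in the treated groups lay below its mean in STZ libraries. It was at 5.03, 5.06 and 4.71 FPKM in STZ + AOS libraries, 5.07, 4.34 and 4.04 FPKM in STZ + AOS-FMT libraries and 3.83, 4.81 and 4.84 FPKM in STZ + control-FMT libraries. The differences from STZ were -0.44, -0.56 and -0.56 (limma adjusted p = 0.137, 0.062 and 0.0674), and the groups overlapped because of STZ replicate 1 at 4.02 FPKM. Without that library Defb45 was called lower in all 3, with differences of -0.78, -0.90 and -0.90 (limma adjusted p = 0.0028, 0.000948 and 0.00105). Without STZ replicate 2 the difference in STZ + AOS was -0.13 (limma adjusted p = 0.643). Across the alternatives the 3 differences became as small as -0.06, -0.16 and -0.22. In AOS libraries Defb45 was at 6.07, 5.68 and 3.55 FPKM.

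Defb14 is the mouse counterpart of human beta-defensin 3, an antimicrobial peptide of skin and other epithelia. It was at 6.65, 7.20 and 8.75 FPKM in STZ + AOS-FMT libraries, 6.33, 7.73 and 6.54 FPKM in STZ + control-FMT libraries and 6.31, 5.88 and 6.35 FPKM in STZ + AOS libraries, against 3.23, 5.06 and 5.77 FPKM in STZ libraries. All 9 treated libraries thus lay above the 3 STZ libraries. It rose by 0.61 in STZ + AOS-FMT over STZ (SE 0.17, limma adjusted p = 0.00596) and by 0.49 in STZ + control-FMT over STZ (SE 0.17, limma adjusted p = 0.0219). In STZ + AOS over STZ the difference of 0.36 did not pass (limma adjusted p = 0.0752). The call in STZ + control-FMT was lost without STZ replicate 1 (0.29, adjusted p = 0.104) and without STZ + control-FMT replicate 2 (adjusted p = 0.0808). It was also lost when only the groups compared were fitted (adjusted p = 0.0797). Without the 3 libraries high in epididymal genes the difference was 0.39, with replicate 1 alone left in the STZ + control-FMT group. Against control libraries at 5.42, 7.01 and 5.85 FPKM, STZ libraries differed by -0.34 (limma adjusted p = 0.0937).

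Defb21 and Defb30 gave no call by limma on the deposited values. Defb21 had group means between 5.65 FPKM (STZ + AOS-FMT) and 6.41 FPKM (STZ + AOS), and single libraries ranged from 3.60 to 10.1 FPKM. Defb30 ranged from 0.33 to 1.86 FPKM, and its gene overlaps Defb42 on the opposite strand on chromosome 14. Neither was called. Over all 6 groups, the limma F test called Defb19 (adjusted p = 4.76e-05), Defb36 (adjusted p = 6.2e-07) and Defb47 (adjusted p = 0.0245), that is 3 of 14 members, and 52.3% of all genes. Defb47 reached 1 FPKM only in the 3 STZ + control-FMT libraries, so its own high values let it through the filter.

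By level per transcript length, the control libraries ranked Defb19 (241.7 ± 17.3 FPKM, SD, n = 3) above Defb33 (121 ± 6.70 FPKM) and Defb36 (56.2 ± 12.4 FPKM), followed by Defb14, Defb21 and Defb45 at 6.09 ± 0.823, 5.69 ± 0.898 and 4.09 ± 0.922 FPKM. The libraries of neighbours in this order overlapped between Defb14 and Defb21 and between Defb21 and Defb45. In STZ libraries Defb36 (202 ± 26.3 FPKM) stood above Defb33 (100.4 ± 34.6 FPKM), with Defb19 at 523.5 ± 110 FPKM.

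Other genes of the same function were set beside the family. From a list of 15 other antimicrobial protein genes, 6 could be tested. Of these 3 rose in STZ over control, where 43.2% of all genes tested were called higher. Lyz1 and Lyz2, the lysozymes that cut bacterial cell walls, rose by 1.66 (limma adjusted p = 3.22e-08) and 2.07 (limma adjusted p = 4.1e-07), and Lyz2 is also in the macrophage list. Eppin, a protease inhibitor on sperm that Sertoli cells also make, rose by 0.76 (limma adjusted p = 0.000675). Lcn2, a lipocalin that withholds iron from bacteria, was at 184, 1903 and 1871 FPKM in STZ libraries, against 431, 476 and 387 FPKM in control libraries, so STZ replicate 1 lay below all control libraries. Its difference did not pass the test (limma adjusted p = 0.152), and it was chosen after its values were seen. Of 5 receptors reported for beta-defensins only Ccr6, a chemokine receptor, could be tested, and it differed by -0.28 (limma adjusted p = 0.0804).

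The remaining 28 members were low in most libraries. Of the 20 that reached 1 FPKM in any library, Defb30 and Defb35 peaked in AOS libraries and the others in STZ + control-FMT replicate 2, STZ + control-FMT replicate 3 or control replicate 3. The 28 summed to 104 and 639 FPKM in STZ + control-FMT replicates 2 and 3 and to 77.4 FPKM in control replicate 3, and to 1.63 to 16.6 FPKM in the other 15 libraries. Many of the 28 fell into sets by the library in which they were high, and since these values chose the sets, the sets are a description.

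The first set holds 7 members at 10 FPKM or more in STZ + control-FMT replicate 3. Defb47 stood at 277 FPKM, Defb20 at 99.1 FPKM, Defb41 at 82.7 FPKM, Defb25 at 80.8 FPKM, Defb18 at 32.3 FPKM, Defb48 at 31.6 FPKM and Defb42 at 20.0 FPKM in that library. Defb41 is known from the first part of the mouse epididymis, the caput. Some symbols of the family, Defb41, Defb42, Defb47 and Defb48 among them, have been used for different genes in different annotations, and the table's annotation is not stated, so their coordinates and promoters hold only if it used them as GENCODE M21 does. The sum of the 7 was 13.8 FPKM in STZ + control-FMT replicate 1 and 4.72 FPKM in STZ + control-FMT replicate 2, and 0.53 to 2.50 FPKM elsewhere. All 7 were above 0 in STZ + control-FMT replicate 1, between 0.67 and 4.75 FPKM, and replicate 3 exceeded it by 20.2 to 62.6 times with a median of 40.0. Part of the epididymal marker list showed the same contrast. Gpx5, an epididymal glutathione peroxidase, was at 5.71, 0.38 and 203 FPKM in STZ + control-FMT replicates 1, 2 and 3. Spag11b, a defensin-related sperm-binding peptide gene, was at 2.26, 0.27 and 131 FPKM in the same libraries and listed at 0 in all others. Other markers of the list were highest in replicate 2, such as Crisp1 (0.99, 256 and 33.6 FPKM) and Cuzd1 (4.72, 48.9 and 19.1 FPKM).

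The second set holds 9 members at 1 FPKM or more in both STZ + control-FMT replicate 2 and control replicate 3. Defb28 was at 33.2 FPKM in STZ + control-FMT replicate 2 and 24.1 FPKM in control replicate 3. Defb38 was at 28.0 FPKM in STZ + control-FMT replicate 2 and 19.9 FPKM in control replicate 3. Defb22, which encodes a glycoprotein of the sperm coat, was at 7.54 FPKM in STZ + control-FMT replicate 2 and 14.2 FPKM in control replicate 3. The other 6 (Defb40, Defb37, Defb43, Defb11, Defb2 and Defb26) were between 1.20 and 7.60 FPKM in these 2 libraries. The sum of the 9 was 94.5 and 13.5 FPKM in STZ + control-FMT replicates 2 and 3 and 72.3 FPKM in control replicate 3. It was 3.69 FPKM in STZ + AOS replicate 2, 3.53 FPKM in STZ replicate 1, 0 in all 3 STZ + AOS-FMT libraries and at most 1.67 FPKM in the others. Crisp1, a secreted protein of the epididymis that coats sperm, was at 256 FPKM in STZ + control-FMT replicate 2, 33.6 FPKM in STZ + control-FMT replicate 3 and 159 FPKM in control replicate 3. It was also at 13.04 FPKM in STZ replicate 1 and 7.59 FPKM in STZ + AOS replicate 2, the same 2 libraries in which the 9 members stood next highest.

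**Figure D4:**
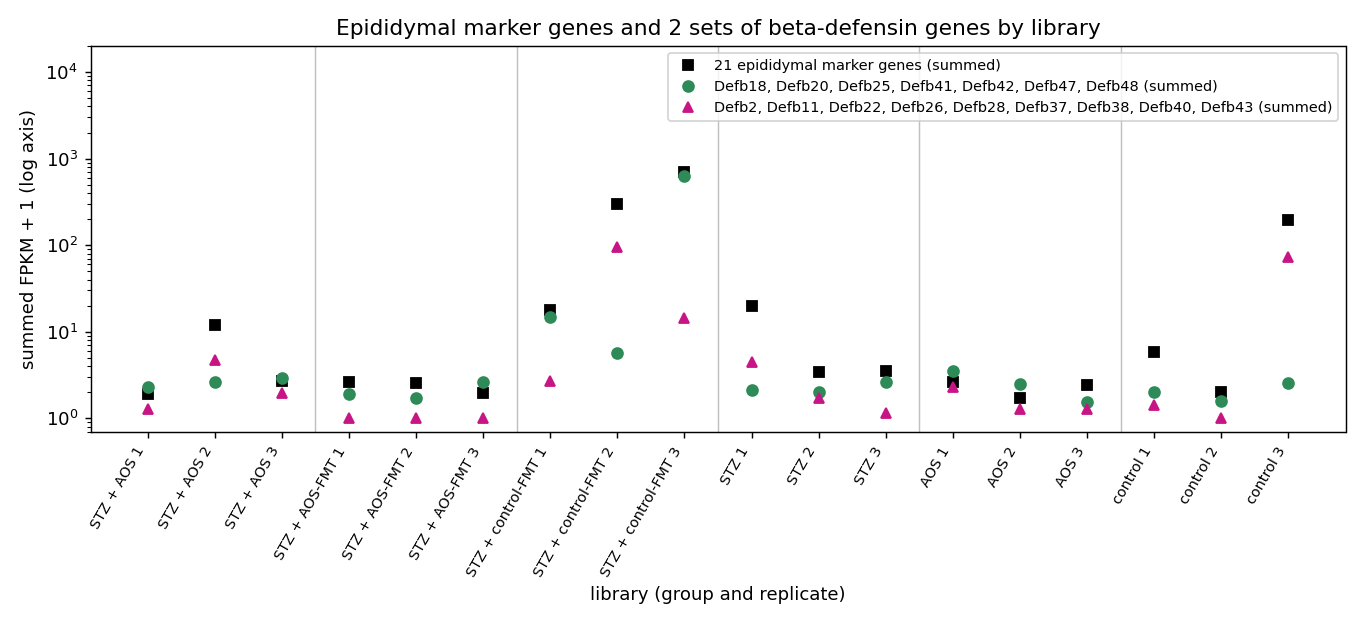
Summed FPKM + 1 per library, on a log axis, of 21 epididymal marker genes, of the 7 members high in STZ + control-FMT replicate 3 and of the 9 members high in STZ + control-FMT replicate 2 and control replicate 3. The 7 members peak at 623 FPKM in STZ + control-FMT replicate 3, and the 9 members peak at 94.5 and 72.3 FPKM in STZ + control-FMT replicate 2 and control replicate 3.

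By position, the sets shared the chromosome 2 and 14 clusters, while chromosome 1 members were in the first set and chromosome 8 members in the second. The first set has 2 members on chromosome 1 (Defb18 and Defb41), 2 on chromosome 2 (Defb20 and Defb25) and 3 on chromosome 14 (Defb42, Defb47 and Defb48). The second has 5 on chromosome 8, 3 on chromosome 2 (Defb22, Defb26 and Defb28) and 1 on chromosome 14 (Defb43). The promoter of the leading member of each set is shown for comparison with those of the testis members. The Defb47 window is chr14:62997827-62998126 and the Defb28 window is chr2:152518005-152518304, both on the plus strand of GRCm38.p6 in RefSeq, with AGAACA in capitals.
Defb47: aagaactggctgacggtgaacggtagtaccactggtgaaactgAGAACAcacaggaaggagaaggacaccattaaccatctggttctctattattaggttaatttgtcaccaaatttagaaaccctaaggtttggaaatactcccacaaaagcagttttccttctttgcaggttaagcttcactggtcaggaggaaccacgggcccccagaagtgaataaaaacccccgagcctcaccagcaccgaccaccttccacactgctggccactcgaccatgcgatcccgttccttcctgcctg
Defb28: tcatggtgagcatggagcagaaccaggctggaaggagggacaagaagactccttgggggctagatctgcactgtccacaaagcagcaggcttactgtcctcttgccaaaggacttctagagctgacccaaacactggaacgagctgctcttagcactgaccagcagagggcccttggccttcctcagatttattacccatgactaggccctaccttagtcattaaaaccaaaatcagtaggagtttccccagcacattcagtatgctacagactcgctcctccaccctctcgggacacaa
The Defb47 window holds 1 AGAACA on its own strand, and none of the 4 motifs searched was found in the Defb28 window.

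In the tests, Defb47 was the only member of either set that was called. It was at 4.75, 2.07 and 277 FPKM in STZ + control-FMT libraries, against 0.41, 0 and 0.09 FPKM in STZ libraries. The difference was 3.88 on the log2(FPKM + 1) scale (SE 1.04, limma adjusted p = 0.00592). These 3 STZ + control-FMT libraries were the only ones at 1 FPKM or more and alone let Defb47 through the filter, so this call is no independent support. When every gene above 0 was fitted the adjusted p was 0.0101, and when only the groups compared were fitted the call was lost (adjusted p = 0.0896). Without STZ + control-FMT replicate 3 the difference was 1.86 (adjusted p = 3.91e-05). Without the 3 libraries high in epididymal genes it was 2.32, with replicate 1 alone left in the STZ + control-FMT group. Both fits kept the genes that passed the filter over all 18 libraries. Without replicate 3 Defb47 would have failed that filter, so neither fit is independent support. The sum of the 21 epididymal markers was 16.8, 298 and 702 FPKM in the STZ + control-FMT libraries. In the STZ libraries it was 18.8, 2.39 and 2.51 FPKM. In STZ + control-FMT replicate 2, where Defb47 was lowest of the 3, the markers were split. Crisp1 was highest there, at 0.99, 256 and 33.6 FPKM in replicates 1, 2 and 3. Gpx5 was lowest there, at 5.71, 0.38 and 203 FPKM. The part of these markers in the result was not tested. In STZ + AOS-FMT against STZ + control-FMT by limma 0 members were called, where 0.00% of all genes were called. In that comparison 6 members (Defb22, Defb28, Defb38, Defb41, Defb43 and Defb47) had an unadjusted p under 0.05, all lower in STZ + AOS-FMT, as had 866 of the 14164 genes. All 6 belong to the sets that are high in few libraries, and Defb47 differed by -3.59 (SE 1.04, limma adjusted p = 0.694). All but Defb22 passed the filter only with their STZ + control-FMT libraries, so these differences are no independent support. Leaving out STZ + control-FMT replicate 3 there gave a call for Defb47, again with the filter taken over all 18 libraries. Of the 21 members in the table that are known from the epididymis, 8 could be tested, 0 were called in STZ against control and 1 (Defb47) in STZ + control-FMT against STZ. These 8 include Defb30, and Defb21, which reached 1 FPKM in all 18 libraries.

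The last members were near the floor of the table. Defb10 reached 2.03 FPKM in STZ + control-FMT replicate 2 alone, Defb9 1.71 FPKM in control replicate 3 and 0.43 FPKM in STZ + control-FMT replicate 2, and Defb35 1.06 FPKM in AOS replicate 1 alone. Defb9, Defb10, Defb2 and Defb11 share 22.0 to 38.3% of their 25-base words with other genes, so reads could have been split among them. Defb1, Defb4, Defb12, Defb23 and Defb29 stayed under 1 FPKM, with their highest value of 0.84 FPKM in Defb1 in STZ + control-FMT replicate 2 and in Defb29 in STZ + control-FMT replicate 3.

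The genes most like a member were taken as the 3 with the highest Pearson correlation of log2(FPKM + 1) over the 18 libraries after the group means were subtracted. These values are descriptions, and all genes of a library share its scaling and its tissue. Defb19 went with Ncbp2 (0.97), 1810022K09Rik (0.95) and Aldh1a3 (0.95), and Defb36 with Slc7a6os (0.91), Scfd2 (0.87) and Atp6v1d (0.86). Defb33 went with Polb (0.88), Ulk2 (0.87) and 1700074P13Rik (0.87), and Defb14 with Uggt1 (0.88), Adck2 (0.87) and Ncoa2 (0.86). Defb45 went with Ikbkb (0.93), Mapre2 (0.91) and Zranb2 (0.91). Defb41 and Defb47 were each among the 3 closest of the other (0.95), both beside Cst11, an epididymal cystatin, at 0.98 and 0.95. These values rest mostly on STZ + control-FMT replicate 3, with 82.7 FPKM in Defb41, 277 FPKM in Defb47 and 77.8 FPKM in Cst11. Defb28 went with Wfdc16, Ces5a and Serpina16 (0.98 each), Defb38 with Spink10 (0.99), Prom2 (0.98) and Cd52 (0.98), and Defb43 with Serpina16 (0.99), Wfdc13 (0.98) and Ly6f (0.98). Defb28, Defb38 and Defb43 were high mainly in STZ + control-FMT replicate 2 and control replicate 3, so their correlations rest on few libraries.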

How the data were processed

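RNA sequencing of testis gave 18 libraries in 6 groups of 3. The authors deposited 1 table of values per gene and library, taken here as FPKM: the header names no unit, and RPKM cannot be told apart from it. The submitters' processing notes name Bowtie 0.12.2 and mm10 without a role, and no source used here gives the counter or annotation. Symbols were used as the table gives them, and all 34 members matched one in GENCODE M21, which has 43 such symbols, the other 9 being not analysed here. Some symbols were used for different genes in different annotations, so a match by symbol may not be the gene the authors measured.

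Tests used limma 3.58.1 (trend) in R 4.3.3 on log2(FPKM + 1), for the 14164 genes at 1 FPKM or more in at least 3 libraries. A single model held all 18 libraries with group as its only term, and genes were called at a two-sided Benjamini-Hochberg adjusted p under 0.05 over all genes tested. Within groups, replicates correlated at 0.9782 to 0.9946. The model was tested on simulated data.

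Members at 1 FPKM in any library are named with their values, as are up to 4 genes per list by p in STZ against control. The members and the gene lists were chosen with earlier results of these data known. Alternatives were the pseudocount, the filter, quantile normalization, median centring, a replicate block, fits of only the groups compared, leaving out each library, and, chosen after seeing the data, leaving out the 3 libraries high in epididymal genes.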

Additional observations from a re-analysis of the deposited data

Results flagged for a closer look

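The effect of AOS differed between mice with and without STZ in 2 members. In Defb19 the difference of STZ + AOS from STZ minus that of AOS from control was -0.96 on the log2(FPKM + 1) scale. In Defb36 it was -1.48. Both passed the limma test of the interaction, with adjusted p of 0.00175 and 0.000128, and STZ libraries lay above all other libraries in both genes. They were 2 of 14 members tested, where 35.2% of all genes were called, 29.1% negative and 6.12% positive. Of 18 Sertoli cell markers, 17 were called negative in the same test, and their part in the result was not tested.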

How the results depend on the processing

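Across 15 alternatives each, and 21 for the interaction, Defb19 and Defb36 kept their direction and their call in STZ against control (0.75 to 1.28 and 1.498 to 1.997), in each treated group against STZ and in the interaction. Median centring, which lowers every difference of STZ from control by 0.34, gave 5 called members in STZ against control (2 higher, and Defb14, Defb30 and Defb33 lower, in place of 3 higher), 4 in STZ + AOS, 5 in STZ + AOS-FMT and 10 in STZ + control-FMT against STZ, and 6 in the F test. In STZ + control-FMT against STZ, 8 members were called without a filter, 8 with a filter at 0.1 FPKM and 2 when only the 2 groups were fitted. The share of all genes called was not computed for the alternatives. Their counts of members, here and below, therefore cannot be set against other genes. Leaving out 1 library moved the count of called members between 2 and 4 in STZ against control and in STZ + AOS against STZ, between 3 and 5 in STZ + AOS-FMT against STZ and in the F test, and between 4 and 8 in STZ + control-FMT against STZ. The counts of 4 in STZ + AOS and 5 in STZ + AOS-FMT against STZ and 5 in the F test came without STZ replicate 1, and the 8 without STZ + control-FMT replicate 1, which also gave 5 in the F test. In STZ + AOS-FMT against STZ + control-FMT and in STZ + control-FMT against control the count lay between 0 and 1. It was 1 (Defb47) without STZ + control-FMT replicate 3, a fit that kept Defb47 only through the filter over all 18 libraries. Without the 3 libraries high in epididymal genes only replicate 1 was left in the STZ + control-FMT group. No count is given for that fit. The call of Defb45 in STZ against control was also lost with quantile normalization (0.30), median centring (0.34) and a fit of only the groups compared (adjusted p = 0.129). Differences were followed across the alternatives only for Defb19, Defb36, Defb45, Defb33, Defb14 and Defb47. They covered STZ and AOS against control, the treated groups against STZ, the interaction and, for Defb36, STZ + AOS against control. Among these, only differences of AOS from control reversed, none of them called. Defb36 went to -0.012 without control replicate 3 and without the 3 libraries. Defb33 went to -0.20 without AOS replicate 2 (0.20 at most when another library was left out). Defb14 went to -0.10 without AOS replicate 3 and -0.02 without control replicate 1 (0.21 at most). The cause was not tested. Same-numbered replicates did not deviate together (mean correlation -0.02, with 2 of 45 pairs above 0.1), and with a replicate block the counts of called members were 3 in STZ against control and 2, 3 and 4 in the STZ + AOS, STZ + AOS-FMT and STZ + control-FMT groups against STZ. The unknown depth limits what can be said of members under 1 FPKM.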
